A study of Mus musculus with 15 samples.

Results

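The 9 genes described here encode receptors and ligands of the GDNF family (*Gfra1*, *Gfra2*, *Ret* and *Nrtn*) and of the neurotrophins (*Bdnf*, *Ntf3*, *Ntrk2*, *Ntrk3* and *Ngfr*). They were taken by symbol, 9 of the 24982 symbols in the table, and had been selected on how their expression in *Fmr1* KO mice differed from that in WT mice in these same samples. The values of that comparison are therefore given as a description of these mice, with no p-value for the 9 genes. Ventral striatum RNA came from 3 *Fmr1* KO males, 4 *Fmr1* KO females, 4 WT males and 4 WT females on the C57BL/6J strain, aged 2 to 3 months and dissected after a battery of behavioral tests. The KO allele is constitutive, so every cell of these mice lacks a working *Fmr1* gene. The KO line was kept by mating KO males with KO females and the WT mice were not their littermates, so genotype and breeding line cannot be told apart. Tissue of both hemispheres was pooled for each mouse, and a KO male that the authors had excluded was not analysed here.

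GDNF-family ligands bind a coreceptor held at the cell surface by a lipid anchor, and the pair then activates the tyrosine kinase RET. *Gfra1* encodes the preferred coreceptor of GDNF and *Gfra2* that of neurturin, the product of *Nrtn*. Neurotrophins act through Trk tyrosine kinases, with TrkB (*Ntrk2*) as the receptor of BDNF and TrkC (*Ntrk3*) as that of the *Ntf3* product, while the receptor encoded by *Ngfr* binds all neurotrophins and their precursors. In the striatum much of the BDNF protein is delivered by cortical axons, GDNF sustains dopamine neurons that project there, and *Ngfr* is a known marker of cholinergic neurons of the basal forebrain.

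The table holds log2-scale expression values from the regularized log (rlog) transform, corrected for library size and drawn toward the mean of the gene where counts are low. Read totals were not used here, so depth is unknown and precision was judged from the spread between mice. Genes entered the test where their mean rlog reached 3, which 15261 did, and were fitted with limma, with Benjamini-Hochberg adjustment over all of them and a threshold of 0.05. *Fmr1* itself, at 9.82 to 10.08 in the KO mice and 10.62 to 10.88 in the WT mice, matched every label. The 16 markers of striatal projection neurons, the main cell type of this tissue, all had mean rlog values over 10. WT male 3 and WT female 1 lay nearer to the KO mice than the other 6 on this marker score, and results that turn on them are given with and without them.

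Of the 9 members, 8 passed the minimum for testing and *Nrtn* did not. Over both sexes 5 of the 8 were on the higher side in KO mice and 3 on the lower side, with a median log2 difference of 0.11, against 0.0021 over all genes tested. *Gfra2* was the single member past the threshold, which 1.28% of all genes tested passed, and it rose, as did 0.491% of all genes. No member was called lower, where the share over all genes was 0.793%. In the males taken alone 0 of the 8 members passed with limma, against 0.00655% of all genes, all of them lower, and 2 members were higher and 0 lower at an unadjusted p under 0.05, against 17.2% of all genes in either direction. In the females alone 0 of the 8 passed, against 0.0131% of all genes, all of them lower, and 1 was higher and 1 lower at an unadjusted p under 0.05, against 14.5%. These counts belong to the comparison from which the members were proposed.

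**Figure D1:**
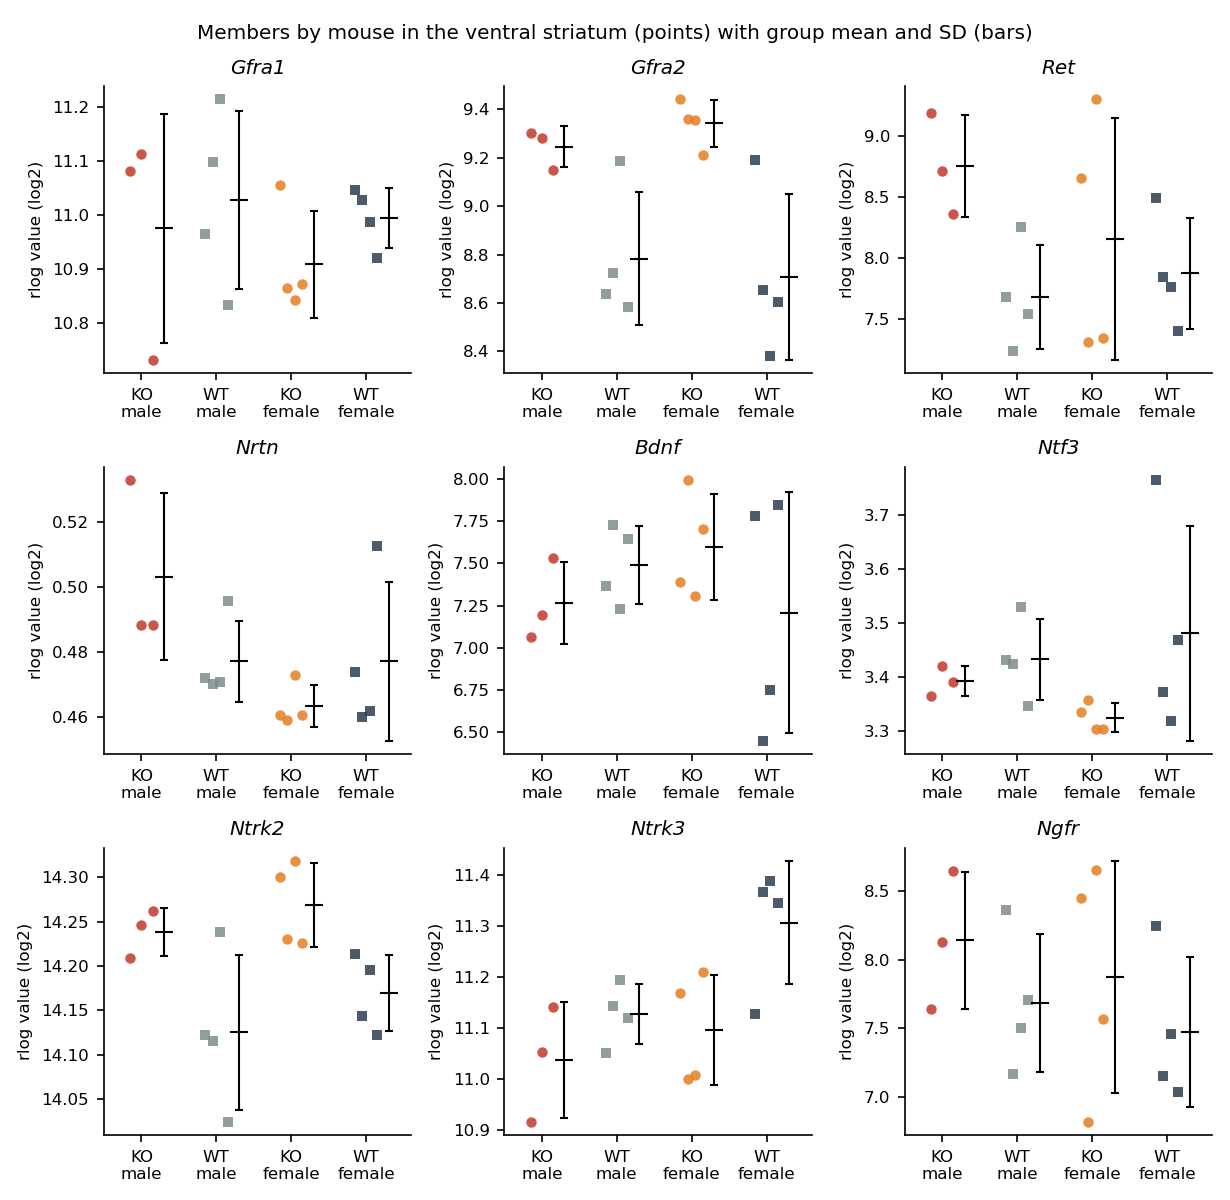
The rlog value (log2 scale, vertical axis of each panel) of each member in every mouse, by genotype and sex, with the group mean and SD as a bar to the right of the points. *Gfra2* lies between 9.15 and 9.44 in the 7 KO mice, while 6 of the 8 WT mice lie at 8.72 or below; each panel has its own axis.

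*Gfra2*, the neurturin coreceptor, lies on chromosome 14 of GRCm38 from 70890120 to 70979838 on the plus strand. Its rlog values were 9.30, 9.28 and 9.15 in the KO males and 9.44, 9.36, 9.36 and 9.21 in the KO females. The WT males had 8.64, 8.72, 9.18 and 8.58 and the WT females 9.19, 8.65, 8.38 and 8.61. The KO mice thus formed a narrow band, and in the WT mice only male 3 and female 1 reached it. In the females every KO mouse was above every WT mouse, which held for 3.59% of all genes tested, with 3.89% the other way round. In the males KO male 4 lay just below WT male 3. The group means ran from 9.34 ± 0.097 in KO females (SD, n = 4) and 9.25 ± 0.083 in KO males (SD, n = 3) down to 8.78 ± 0.27 in WT males and 8.71 ± 0.34 in WT females (SD, n = 4 each). The ranges of the KO groups overlapped with each other, as did those of the WT groups.

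The log2 difference of *Gfra2* over both sexes was 0.56 (standard error 0.11, n = 7 and 8 mice), or 1.47-fold on the rlog scale. This is not a fold of counts, which were not available here. It was 0.46 (standard error 0.14) in the males and 0.63 (standard error 0.15) in the females. The difference stayed between 0.49 and 0.63 without any 1 of the 15 mice. *Gfra2* passed the threshold in 4 of those 15 fits, namely without WT male 3, WT female 1, KO female 2 or KO female 4, and not in the other 11. The fits in which it passed called 1100, 1444, 902 and 665 genes, in that order. The other 11 called 5 to 75 genes, against 196 with all mice. Without both WT male 3 and WT female 1, a choice made after the data were seen, the difference was 0.70, and it was 0.60 in the males without WT male 3 and 0.80 in the females without WT female 1. These are the WT mice with the highest *Gfra2* values, so leaving them out had to widen the difference, and the calls in these fits add no support.

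The genes whose profile over the 15 mice lay nearest to that of *Gfra2* were *Slc8a1*, a sodium/calcium exchanger, *Vsnl1*, a neuronal calcium sensor, and *Tmem196*. Their root-mean-square distances from it, after each gene was centred on its own mean, were 0.11, 0.11 and 0.13 in log2 units, while *Gfra2* itself varied by 0.35 around its mean. All 3 were on the higher side in KO mice, with log2 differences of 0.45, 0.39 and 0.42.

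**Figure D2:**
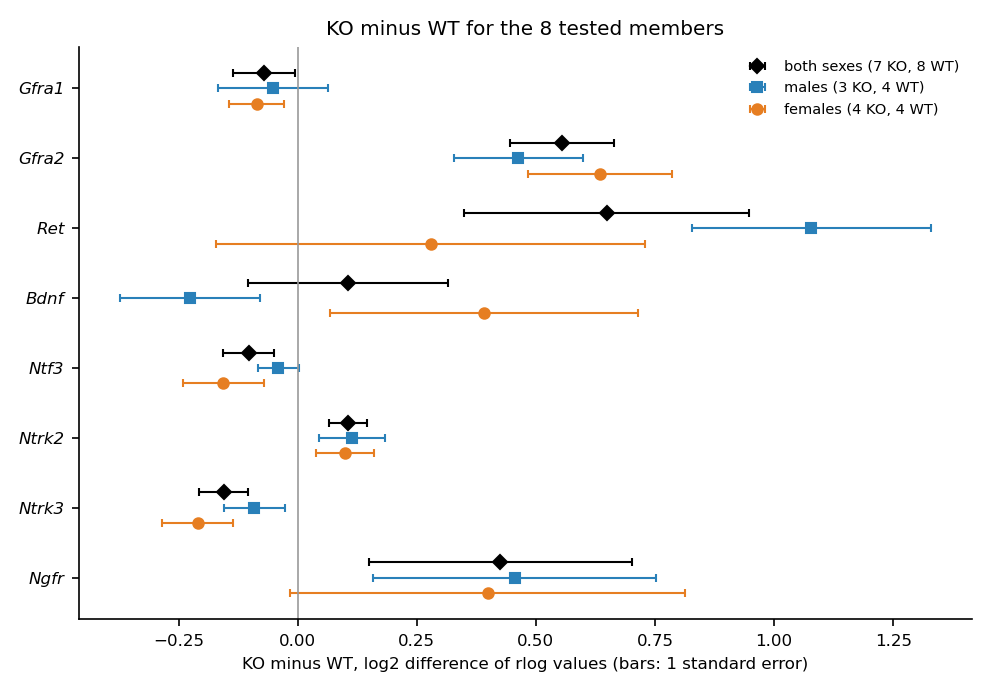
KO minus WT log2 difference of rlog values (horizontal axis) for the 8 tested members, over both sexes, in males and in females, with bars of 1 standard error. *Gfra2* is on the higher side in both sexes (0.46 and 0.63), *Ret* is at 1.08 in males and 0.28 in females, and *Ntrk2* has small values with short bars.

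*Ret*, the signaling receptor shared by the GDNF family, lies on chromosome 6 from 118151745 to 118197718. Its rlog values were 9.19, 8.72 and 8.36 in the KO males, against 7.68, 7.24, 8.25 and 7.54 in the WT males. Every KO male was above every WT male, a pattern found in 6.59% of all genes tested, with 8.58% the other way round. In the KO females the values were 8.66, 7.31, 9.31 and 7.34, against 8.49, 7.84, 7.76 and 7.40 in the WT females. KO females 2 and 4 lay below every WT female and KO females 1 and 3 above every WT female, so the group split to both sides of the WT range. With a range of 2.07 over the 15 mice, *Ret* varied more within groups than 99.7% of the genes tested.

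The log2 difference of *Ret* was 0.65 over both sexes (standard error 0.30, n = 7 and 8 mice), 1.08 in the males (standard error 0.25) and 0.28 in the females (standard error 0.45). None of these passed the threshold. In the males it was 1.27 without WT male 3, the highest WT male, whose removal had to widen it, and *Ret* then passed. In the females the difference was -0.10 without KO female 3. The KO minus WT difference was smaller in females than in males by 0.80 (standard error 0.59), and this interaction did not pass (limma, adjusted p = 0.819).

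*Gfra1*, the GDNF coreceptor on chromosome 19 from 58235604 to 58455909, differed little between the genotypes. The values were 11.08, 11.11 and 10.73 in the KO males and 11.06, 10.86, 10.84 and 10.87 in the KO females. In WT males the values were 10.96, 11.10, 11.21 and 10.83 and in WT females 11.05, 11.03, 10.99 and 10.92. Each genotype spanned nearly the same range, and the log2 difference over both sexes was -0.07 (standard error 0.06), with an interval of 2 standard errors from -0.20 to 0.06. The annotation places an antisense transcript over an exon of *Gfra1*, and whether counting used the strand is not given in the sources used here.

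*Nrtn*, the ligand of the *Gfra2* product, was near the floor of the table in all mice. Its rlog values lay between 0.46 and 0.53 in the KO mice and between 0.46 and 0.51 in the WT mice, where rlog draws nearly all values to the mean of the gene. No direction can be read from such values. With no minimum for testing, its log2 difference over both sexes was 0.0046 (standard error 0.010).

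Among the neurotrophin ligands, *Bdnf*, on chromosome 2 from 109674700 to 109727007, is transcribed from several start sites that the table adds up in 1 row. RefSeq lists 7 start sites for it in GRCm38. One of these is shown because it carries a cAMP response element, a CREB-binding site through which neuronal activity is known to induce this gene. The stretch covers the 100 bases before that start site, chr2:109692336-109692435 on the plus strand, with the element in capitals and its first base at position -38 from the start.

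Bdnf: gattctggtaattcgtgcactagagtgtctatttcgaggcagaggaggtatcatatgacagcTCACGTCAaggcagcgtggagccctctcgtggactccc

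The letters TCACGTCA, searched on both strands because they are known from this gene, occurred in 0.441% of the 32851 promoter windows of the same RefSeq table, and the palindrome TGACGTCA in 1.79%. No other window of a member in the table held either of them. *Gfra2*, *Ret* and *Ntrk3* had no entry there. The rlog row cannot say which start site was in use.

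*Bdnf* had rlog values of 7.06, 7.20 and 7.53 in the KO males and 7.39, 7.99, 7.31 and 7.70 in the KO females. The WT males had 7.36, 7.73, 7.23 and 7.64 and the WT females 7.78, 6.45, 6.75 and 7.85. WT females 2 and 3 were the lowest of all 15 mice and WT female 4 was among the highest, so the WT females alone covered most of the range. The log2 difference was 0.11 over both sexes (standard error 0.21), -0.23 in the males (standard error 0.15) and 0.39 in the females (standard error 0.32). The 8 cortical excitatory neuron markers had their highest score in KO female 2 (1.02), which also had the highest *Bdnf* value, and their lowest in WT female 2 (-0.62), with the lowest *Bdnf* value. That score ranged from -0.49 to 0.25 in the KO males and from -0.55 to 1.02 in the KO females, against -0.34 to 0.22 in the WT males and -0.62 to 0.41 in the WT females, and its part in the *Bdnf* values was not tested. The direction over both sexes was not stable, at -0.04 to 0.19 without any 1 mouse. In the females the difference was 0.14 without WT female 2. In the males its sign turned with a marker score as covariate, to 0.21 with that of projection neurons and 0.17 with that of neighboring regions, both described further on. The interaction was 0.62 (standard error 0.40, limma adjusted p = 0.805). An annotated antisense transcript overlaps an exon of *Bdnf* as well.

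*Ntf3*, which encodes the TrkC ligand, lies on chromosome 6 from 126101412 to 126166910 and was close to the minimum for testing. Its values were 3.36, 3.42 and 3.39 in the KO males and 3.34, 3.36, 3.30 and 3.30 in the KO females. In WT males the values were 3.43, 3.42, 3.53 and 3.35 and in WT females 3.77, 3.37, 3.32 and 3.47. All KO mice lay at 3.42 or below, while WT female 1 was the highest mouse by far. The log2 difference was -0.10 (standard error 0.05), and without WT female 1 it was -0.05.

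*Ntrk2*, the BDNF receptor on chromosome 13 from 58806569 to 59133970, had the highest level of the 9 genes. Per kilobase of annotated exon its rlog value was 9.99 in KO and 9.88 in WT mice, although its exons add up to 19292 bases, a length that lowers the value. At the other end were *Ntf3* (2.58 in KO and 2.68 in WT mice) and *Nrtn* (0.45 and 0.44 per kilobase in KO and WT mice). The genes between them were not ranked, since the exons in use are unknown.

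*Ntrk2* values were 14.21, 14.25 and 14.26 in the KO males and 14.30, 14.23, 14.32 and 14.23 in the KO females. The WT males had 14.12, 14.12, 14.24 and 14.02 and the WT females 14.21, 14.14, 14.20 and 14.12. Every KO female was above every WT female, as in 3.59% of all genes tested, with 3.89% the other way round. The nearest pair, at 14.23 and 14.21, nearly touched, and in the males WT male 3 again lay within the KO range. The log2 difference was 0.11 over both sexes (standard error 0.04) and close to that in each sex, at 0.11 and 0.10 in males and females, and did not pass the threshold. It was 0.13 with WT male 3 and WT female 1 both left out, the WT mice with the highest *Ntrk2* values, so that it had to widen. *Ntrk2* passed the threshold in that fit, which called 2179 genes, against 196 with all mice. That call adds no support. The full-length and the truncated receptor, a form known to be abundant in astrocytes, share this row. Astrocyte marker scores ranged from -0.05 to 0.16 in the KO males and from 0.01 to 0.08 in the KO females, against -0.17 to 0.07 in the WT males and -0.10 to 0.12 in the WT females. Their part in the *Ntrk2* values was not tested.

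*Ntrk3*, on chromosome 7 from 78175959 to 78738012, was on the lower side in KO mice of both sexes. Its values were 10.92, 11.05 and 11.14 in the KO males and 11.17, 11.00, 11.01 and 11.21 in the KO females. In WT males the values were 11.05, 11.14, 11.19 and 11.12, and in WT females 11.13, 11.37, 11.39 and 11.35. WT females 2, 3 and 4 stood above all other mice, and WT female 1 lay with the males. The log2 difference was -0.15 over both sexes (standard error 0.05), -0.09 in the males (standard error 0.06) and -0.21 in the females (standard error 0.07). It passed the threshold over both sexes without WT female 1 (-0.18) or without both WT male 3 and WT female 1 (-0.18), and not with all mice. WT female 1 was the lowest WT female, so leaving it out had to widen the difference. These fits called 1444 and 2179 genes, against 196 with all mice, and the calls of *Ntrk3* in them add no support.

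*Ngfr*, on chromosome 11 from 95568818 to 95587735, encodes the receptor common to all neurotrophins and had, next to *Ret*, the widest spread. The values were 7.64, 8.13 and 8.64 in the KO males and 8.45, 6.82, 8.65 and 7.57 in the KO females. The WT males had 8.36, 7.17, 7.50 and 7.70, and the WT females 8.24, 7.15, 7.46 and 7.04. The highest and the lowest of the 15 mice were both KO females, numbers 3 and 2. The log2 difference was 0.43 over both sexes (standard error 0.28), 0.46 in the males (standard error 0.30) and 0.40 in the females (standard error 0.41), and *Ngfr* varied more within groups than 99.7% of the genes tested. Single mice moved these values by over 1.5 times, to between 0.20 (without KO male 4) and 0.70 (without KO male 1) in the males, and to between 0.14 (without KO female 3) and 0.75 (without KO female 2) in the females. Of 4 other markers of cholinergic neurons, the score ranged from -0.24 to 0.23 in the KO males and from -0.48 to 0.22 in the KO females, against -0.17 to 0.28 in the WT males and -0.02 to 0.08 in the WT females, and its part in the *Ngfr* values was not tested.

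Sex differences were not used in proposing the genes and were tested over all 15 mice with genotype as a term. By limma 0 of the 8 members passed, while 7.29% of all genes tested did, 3.79% higher and 3.51% lower in females. The smallest adjusted p among the members was that of *Ntrk3*, which was 0.12 higher in females (standard error 0.05, limma adjusted p = 0.175). The largest difference was that of *Ngfr*, at -0.24 in females relative to males (standard error 0.28, adjusted p = 0.687 from limma). At an unadjusted p under 0.05, 1 member was higher in females and 0 were lower, against 21.3% of all genes in either direction. The interaction of genotype and sex passed for 0 of the 8 members and for 0 of all 15261 genes. At an unadjusted p under 0.05, 0 members and 5.98% of all genes were past it. That of *Gfra2* was 0.17 (standard error 0.22, limma adjusted p = 0.903), so that a difference between the sexes from -0.27 to 0.62 lay within 2 standard errors.

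Marker scores of projection neurons and of regions beside the ventral striatum are given here beside the values of *Gfra2*, *Ret* and *Ngfr*. A score was the mean over a marker list of the rlog value minus the mean of the gene over all mice. The score of the 16 projection neuron markers ranged from -0.38 to 0.05 in the KO males and from -0.84 to -0.04 in the KO females, against -0.01 to 0.35 in the WT males and -0.24 to 0.41 in the WT females. All 16 markers were on the lower side in KO mice, with a median log2 difference of -0.48, and 2 passed the test. At an unadjusted p under 0.05 by limma all 16 were lower, against 23.4% of all genes in either direction. The score of 22 markers of thalamus, hypothalamus, septum and pallidum ranged from 0.13 to 0.66 in the KO males and from -0.46 to 0.75 in the KO females, against -0.45 to 0.15 in the WT males and -0.38 to 0.22 in the WT females. Of these, the 12 of thalamus and hypothalamus had a median of 0.56 and the 10 of septum and pallidum one of 0.12, with 12 and 9 on the higher side and 0 past the test, though 4 and 1 were higher at an unadjusted p under 0.05 by limma. One listed hypothalamic marker, *Hcrt*, was near the floor, at a mean of 0.26, and was not tested. Of the other marker lists, the choroid plexus score was 0.34 to 0.41 in the KO males, against -0.20 to 0.08 in the WT males. In the females that score did not separate the genotypes, at -0.27 to 0.05 in KO and -0.23 to 0.23 in WT mice. Over both sexes all 8 microglial and all 7 endothelial and mural markers were on the lower side. All 5 ependymal and all 4 oligodendrocyte precursor markers were on the higher side. In each of these lists 0 markers were past the test. In bulk tissue fewer cells of a type and less RNA per cell cannot be told apart.

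**Figure D3:**
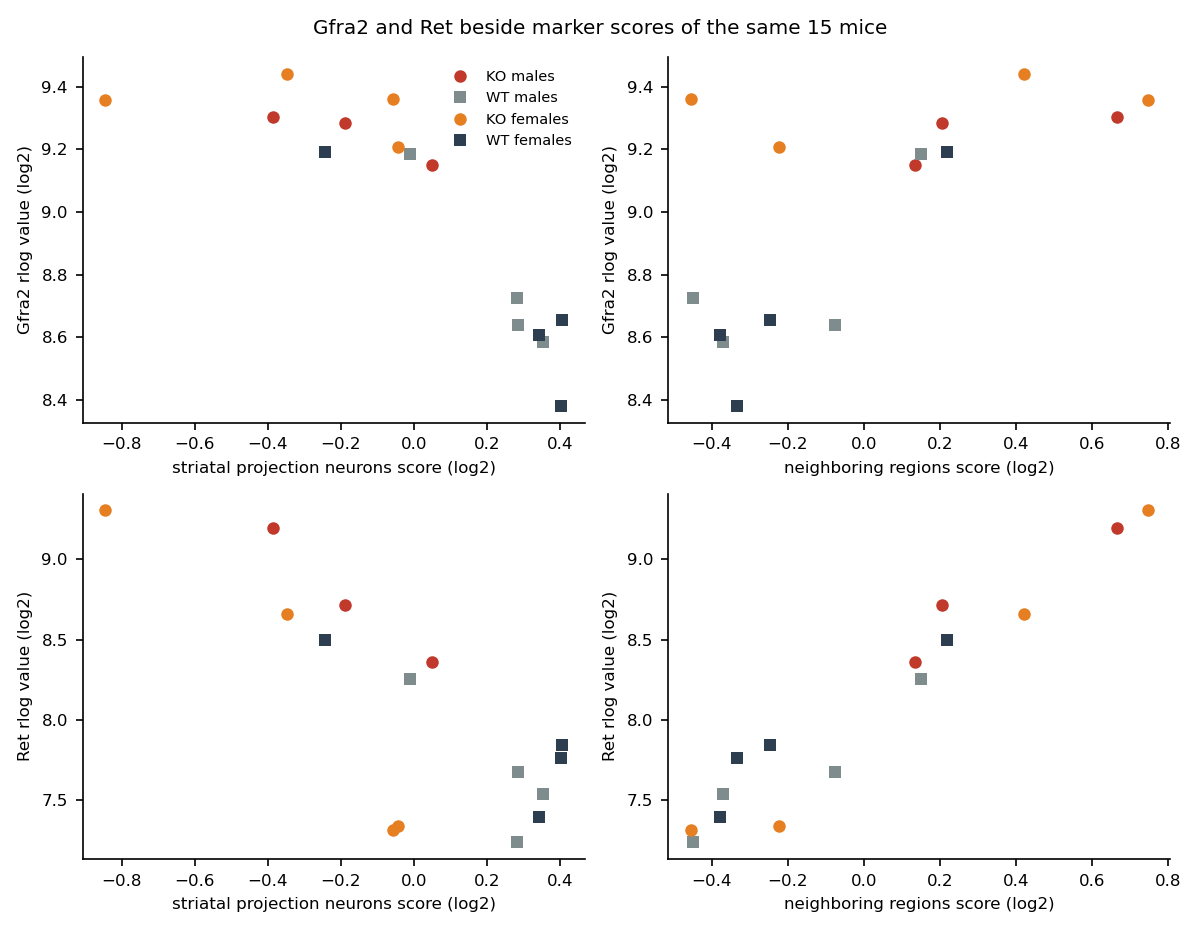
The rlog value of *Gfra2* (top) and *Ret* (bottom) in each of the 15 mice against the projection neuron score (left) and the neighboring-region score (right), all on log2 scales. KO females 2 and 4, with neighboring-region scores of -0.46 and -0.22, have *Gfra2* values of 9.36 and 9.21 and *Ret* values of 7.31 and 7.34.

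In the same mice *Ret* was ordered much as the neighboring-region score: the highest mice on both were KO female 3 and KO male 1, and KO female 2 and WT male 2 had the lowest scores and the lowest *Ret* values. *Ngfr* was also highest in KO female 3 and lowest in KO female 2. From KO male 1 to KO male 4, however, *Ngfr* rose from 7.64 to 8.64 while the neighboring-region score fell from 0.66 to 0.13. With that score as a covariate, the log2 difference of *Ret* over both sexes was -0.04 and that of *Ngfr* -0.0027. Within the sexes these were 0.33 in the males and -0.25 in the females for *Ret*, and 0.61 in the males and -0.08 in the females for *Ngfr*, so the values over both sexes lie between opposite signs. That of *Gfra2* was 0.43, with 0.19 in the males and 0.54 in the females. Over both sexes *Gfra2* was no longer past the threshold, in a fit that called 17 genes in all. When the projection neuron score entered the fit instead, the difference was 0.27 for *Gfra2*, -0.24 for *Ret*, -0.09 for *Ngfr* and -0.04 for *Ntrk3*. None of these passed, but only 1 of all genes tested was called with that score. In that fit *Gfra2* was at 0.08 in the males and 0.37 in the females, *Ret* at 0.25 in the males and -0.82 in the females, and *Ngfr* at 1.09 in the males and -0.57 in the females. WT male 3 and WT female 1, with the lowest projection neuron scores of the WT mice (-0.01 and -0.24), had the highest *Gfra2* values of the WT mice. Among the KO mice, KO female 3 and KO female 2 had the same *Gfra2* value (9.36) at projection neuron scores of -0.84 and -0.06. What part of the differences goes with the makeup of the tissue was not tested beyond these fits, since the scores themselves differ between the genotypes.

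**Figure D4:**
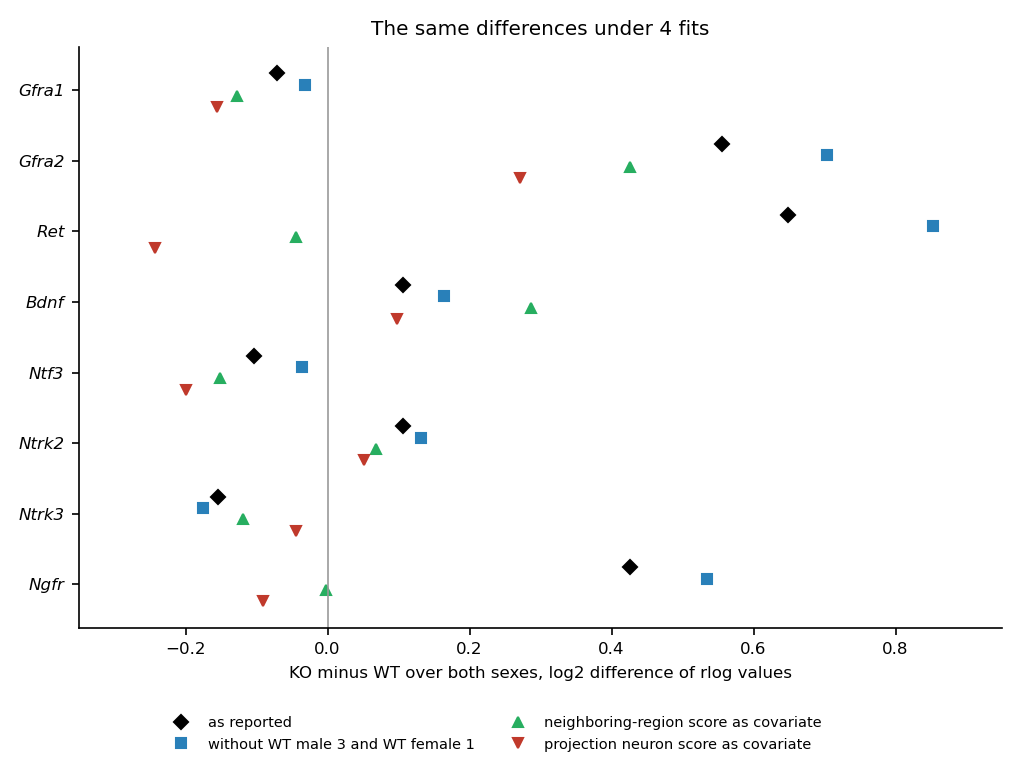
KO minus WT log2 difference over both sexes (horizontal axis) of the 8 tested members in 4 fits: as reported, without WT male 3 and WT female 1, and with each marker score as a covariate. *Gfra2* stays on the higher side in all 4 (0.27 to 0.70), and *Ret* lies at 0.65, 0.85, -0.04 and -0.24.

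Nearest to *Ret* by profile over the 15 mice were *Frem3*, *Plch1*, a phospholipase C, and *Pnoc*, the nociceptin precursor, at distances of 0.22, 0.24 and 0.26, with *Ret* varying by 0.67 around its mean. Nearest to *Ngfr* was *Avp*, the vasopressin precursor and one of the neighboring-region markers, at 0.30, with *Elfn1* and *Slc29a4* next at 0.32 each. *Bdnf* lay nearest to *Sstr3*, a somatostatin receptor, at 0.18, with *Olfm1* and *Prdm8* at 0.21 each. For the members with little spread the nearest genes were *Slc37a1*, *Pdzd3* and *Zbtb25* (*Gfra1*), *Ptpn14*, *Zfp747* and *Ppara* (*Ntf3*), *Rbm8a*, *Mapt* and *Copa* (*Ntrk2*), and *Zeb1*, *Syn3* and *Tcf20* (*Ntrk3*).

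The other genes of these pathways were compared through lists written from general knowledge, and none of their tested members passed the threshold over both sexes by limma. Of 9 further GDNF-family ligands and receptors 5 were tested. *Gdnf*, the ligand of the *Gfra1* product, had a log2 difference of -0.17 (standard error 0.07, limma adjusted p = 0.159) and *Gfra4*, the coreceptor of persephin, one of -0.12 (standard error 0.05, limma adjusted p = 0.156). *Pspn*, *Gfra3*, *Gfral* and *Gdf15* were under the minimum for testing. Of 8 further neurotrophin ligands, receptors and coreceptors 7 were tested and 6 of them were on the lower side. Their median was -0.11, and 0.03 with the projection neuron score as covariate. *Sorcs1*, a sorting receptor of the sortilin family, was at -0.15 (standard error 0.06, limma adjusted p = 0.163).

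Of 30 tested adaptors and early effectors of these receptors 15 were on each side, with a median of 0.0074. *Gab2*, a docking protein, came closest to the threshold at 0.19 (standard error 0.05, limma adjusted p = 0.0526), followed by *Dok4*, a RET adaptor, at -0.25 (standard error 0.06, limma adjusted p = 0.0537). *Gab2* passed in 4 and *Dok4* in 3 of the 15 fits without 1 mouse, both among them without WT male 3 or WT female 1. Among 12 tested genes that process proneurotrophins, 7 were on the higher side. Their median difference was 0.05. The proprotein convertases *Pcsk1* and *Pcsk6* were at 0.37 (standard error 0.11, limma adjusted p = 0.0760) and 0.19 (standard error 0.07, limma adjusted p = 0.120). Of 16 genes induced by Trk and Ret signaling, 12 were on the lower side over both sexes (median difference -0.04). In the females 12 were lower (median -0.10), while in the males 8 were on each side (median 0.0022). Among the genes lower over both sexes were *Spred1*, an inhibitor of Ras signaling, at -0.17 (standard error 0.06, limma adjusted p = 0.105), and *Etv5*, a transcription factor downstream of RET, at -0.13 (standard error 0.07, limma adjusted p = 0.255). With the projection neuron score as covariate, *Etv5* turned to 0.0893, *Spred1* was at -0.02 and *Gdnf* at -0.02. An unadjusted p under 0.05 was reached by 1 higher and 2 lower of the 5 GDNF-family genes, 1 and 1 of the 7 neurotrophin genes, 4 and 4 of the 30 adaptors, 3 and 0 of the 12 processing genes and 0 and 1 of the 16 induced genes. Over all genes tested that share was 23.4%.

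**Figure D5:**
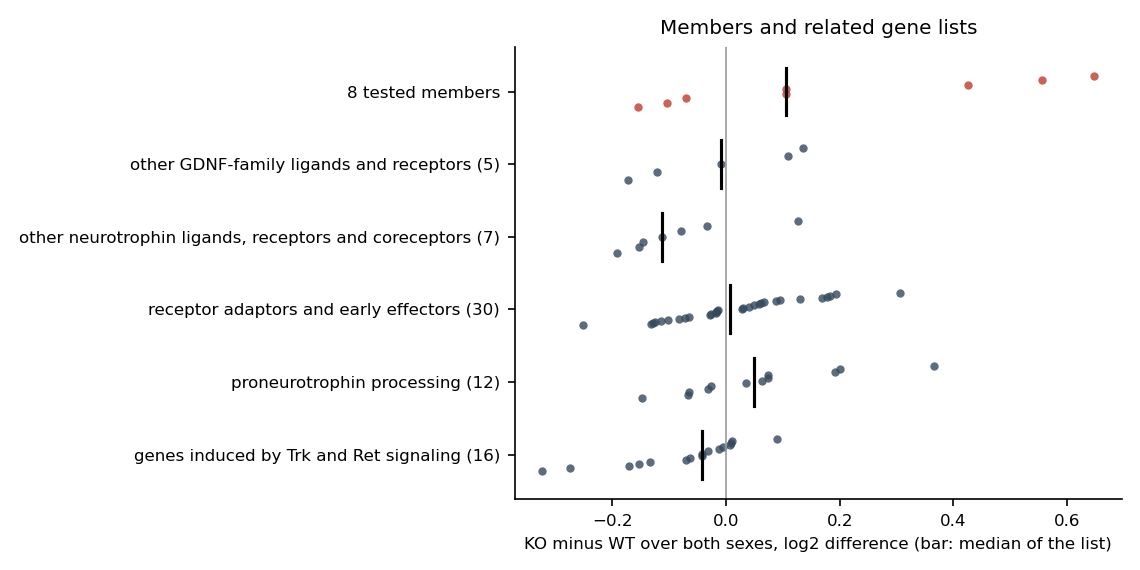
KO minus WT log2 difference over both sexes (horizontal axis) of each tested gene, for the members and for 5 lists of related genes with the number tested in parentheses; the vertical bar is the median of the list. The members, which were selected on this difference, spread from -0.15 to 0.65, and the medians of the 5 lists lie between -0.11 and 0.05.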

How the data were processed

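Ventral striatum RNA of 15 mice was analysed. Per the labels and the methods of the study, the authors made stranded mRNA libraries, sequenced paired ends, aligned them to mm10 (GRCm38) with STAR and used DESeq2. The authors deposited the DESeq2 rlog transform of their counts, on the log2 scale; these are not counts, so limma 3.58.1 in R 4.3.3 was used in place of a count test. Each gene with a mean rlog of at least 3 entered a linear model (empirical Bayes with a mean-variance trend, 2-sided moderated test, Benjamini-Hochberg adjustment, threshold 0.05): genotype with sex as a term, the males and females alone, the interaction from 4 group means, and sex with genotype as a term. Fits were checked on simulated data with known changes. The members, the lists and the marker genes were chosen with earlier results of these data known. Beside the members, genes were named as the up to 2 smallest adjusted p of each list and the 3 nearest profiles of each member. For 1 list, a gene that this rule names is not reported here. Alternatives were other minima, no trend, quantile normalization, weights for sample quality, replicate blocks, marker scores as covariates, no term for sex, the spread of all mice, WT mice alone for sex, and each mouse left out; a fit with neither WT male 3 nor WT female 1 was added after the data were seen. Positions came from GENCODE M21, promoter windows from RefSeq (GRCm38). Labels do not say whether mice shared a litter. Figures used matplotlib 3.10.9.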

Additional observations from a re-analysis of the deposited data

Results flagged for a closer look

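Each member was examined in each group of 4 mice, which made 27 sets of values. In 4 of these sets 1 mouse stood apart from the other 3 by more than the 95% limit for a sample of that size. Chance alone gives about 1 in 20 sets, but the sets reuse the same mice, so no excess can be read from this count. *Ntrk3* in WT female 1 was 11.13, with the nearest other WT female at 11.35. *Gfra1* in KO female 1 was 11.06, with the nearest other KO female at 10.87. *Nrtn* in KO female 3 was 0.473 and in WT male 4 0.496, against 0.461 and 0.472 in the nearest mouse of the same group, differences of a gene near the floor of the table. The KO males, with 3 mice, were not examined in this way.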

How the results depend on the processing

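Over both sexes 196 genes were called, and 51 with no minimum on the mean rlog, 4767 with sample quality weights, 925 with the replicate block, 1 with the projection neuron score, 17 with the neighboring-region score and 2179 without WT male 3 and WT female 1, a choice made after the data were seen; without any 1 mouse there were 5 to 1444. The members called were 1 (*Gfra2*), and 0 with no minimum, 0 with either score, 5 with sample quality weights, 3 without WT male 3 and WT female 1 and 0 to 2 without any 1 mouse. In the males 1 gene was called, 1865 with sample quality weights, 0 with the replicate block or either score, 2 with the spread of all mice and 0 to 322 without any 1 mouse; members called were 0, 2 with weights and 0 to 2 without any 1 mouse. In the females 2 genes were called, 1 with no minimum, 16 with weights, 0 with the replicate block, 9 with the spread of all mice and 0 to 37 without any 1 mouse; members called were 0, and 0 to 1 without any 1 mouse. Between the sexes 1113 genes were called, 2314 with weights and 430 in WT mice alone; members called were 0, and 1 with weights. The interaction called 0 in every fit run. *Etv5* was at 0.0893 with the projection neuron score. The cause of these changes was not tested. Of 21 pairs of mice with the same replicate number in different groups, 17 had deviations from their group means that correlated at over 0.1 (range -0.26 to 0.61, median 0.35, against -0.08 for other pairs), and 8 of the 15 mice correlated best with a mouse of their own number, a hint from the data that mice of 1 number share something. The highest correlation of all, 0.63, was between mice of different numbers, WT male 2 and KO female 4. Deviations cancel within a group, so high values in same-number pairs lower those of other pairs, and the -0.08 is no independent contrast. The counts expected by chance were not worked out. The labels tie the numbers to no litter, batch or day and 4 of the 21 pairs were at 0.1 or below. No block was therefore used for the reported values. With the replicate block *Gfra2* kept its call (0.55), in a fit that called 925 genes, against 196 without it, and this call adds no support. The fit with sample quality weights called 4767 of the 15261 genes tested. The members called in it were *Gfra2* (0.66), *Ret* (0.94), *Ntrk2* (0.15), *Ntrk3* (-0.14) and *Ngfr* (0.60). These calls belong to the comparison on which the members were selected and add no support. Quantile normalization gave 0.22 for *Ntrk2*. Depth is unknown for these values, and rlog makes differences of weakly expressed genes such as *Nrtn* and *Ntf3* smaller.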
